A study of Ovis aries with 32 samples.

Results

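The transcriptional response of the newborn lamb cerebral artery to phenylephrine (PHE) was measured on 8 of the 32 arrays of the series: 4 arrays of untreated vessel and 4 of vessel exposed to PHE, taken as the arrays that the labels name newborn untreated and newborn PHE. Middle cerebral artery (MCA) segments lay in Krebs buffer at 38 °C, and the treated segments were exposed to 10 µM PHE for 30 min. How long the untreated segments lay in the bath is not given in the sources used here, so PHE and time in the bath cannot be told apart. The labels give the lambs' age as 12 hours and the study's methods as 5 days. By the methods 4 animals were used for each experiment, and each array carried RNA of 1 sample. Whether an untreated and a treated segment with the same number came from the same lamb is not stated, and the p-values therefore measure the spread between these arrays.

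PHE is a selective agonist of the alpha1-adrenergic receptors (Alpha1AR), the receptors through which noradrenaline from sympathetic nerves constricts arteries. Alpha1AR couple through Gq proteins to phospholipase C, which releases calcium and activates protein kinase C, and from there to mitogen-activated protein (MAP) kinases. Signals of this kind first switch on immediate early genes, whose promoters need no new protein synthesis, and these in turn act on later genes. No probe carried the name of an alpha1 receptor gene. The only adrenergic receptor with a named probe was ADRB1, the beta-1 receptor, which was well above background on 0 of 8 arrays and was not tested.

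Signals are given as log2 of the intensity relative to the 75th percentile of each array, so that a value of 0 lies at that percentile, and a difference of 1 is a doubling. Between 63.4% and 68.6% of spots were well above background on the 8 arrays, 0 spots were saturated, and all 8 arrays shared 1 slide and 1 scan day. Arrays of the same group correlated across probes with r between 0.97 and 0.985, and arrays of different groups with r between 0.907 and 0.952. Most probes carried no gene name: 1878 of the 9440 genes and unnamed probes tested had a symbol. Many symbols came from a list that the study published of genes it had found altered at some age, which raises the share of changed genes among named ones. For that reason each count of a functional list below is given with the count among members named without that list, but not the counts of cell type markers. Only the probe used for a gene decides this, so that a gene with a second, otherwise named probe can be left out of that count.

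In the newborn MCA 1789 of 9440 genes and unnamed probes changed with PHE, 905 upward and 884 downward, by limma at an adjusted p under 0.05 and a change of at least 1.5-fold. These are 19% of those tested, 9.59% higher and 9.36% lower. The median log2 fold change over everything tested was -0.08. Rises were larger than falls: 203 genes rose and 16 fell by more than 4-fold, and 44 rose and 0 fell by more than 16-fold. The median rise was 1.13 and the median fall -0.81 on the log2 scale, against a median SD between arrays of 0.22 in untreated and 0.21 in PHE vessels. All 4 same-numbered pairs moved the same way for 1785 of the 1789. Of the 1878 genes with a symbol 950 changed (50.6%), 568 higher (30.2%) and 382 lower (20.3%), and the list counts below are to be read against these shares. Among the 356 genes named without the study's list 26.7% changed, 20.8% higher and 5.9% lower, while among unnamed probes it was 11.1%, with 4.46% higher and 6.64% lower. The split between rises and falls depended on the background correction. With the normexp correction, which shifted the median of all genes by 0.11, 738 rose and 384 fell, so that 65.8% of changes were rises against 50.6% above. Of 413 genes that entered the test only through the PHE arrays 168 rose and 1 fell, and of 199 that entered only through the untreated arrays 76 fell and 0 rose, whereas of the 8828 that were above background on all 8 arrays 737 rose and 807 fell.

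The largest rise among named genes that were above background on every array was that of CREM, a transcriptional regulator of the cAMP pathway whose inducible form damps the response that induced it. CREM measured -1.88, -1.94, -1.55 and -1.91 on the untreated arrays and 4.25, 4.06, 4.05 and 5.03 after PHE. It rose 72.1-fold, with a log2 fold change of 6.17 ± 0.22 (SE, n = 4 and 4, limma adjusted p = 5.94e-07). MT1A and MT2A, metallothioneins that bind zinc and copper, rose as well. Untreated MT1A scattered widely, at -2.36, -0.88, 2.55 and 1.11, but all PHE arrays lay above all untreated ones, at 6.06, 5.50, 6.11 and 6.74, a 64.0-fold rise (adjusted p = 0.00171). MT2A rose 34.9-fold and its untreated arrays ranked as those of MT1A did, so that replicate 3 was highest and replicate 1 lowest. Metallothionein probes may bind transcripts of several family members, and the values are uncertain to that extent.

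CCL2, the chemokine that draws monocytes, rose 36.8-fold from between -2.03 and -1.22 to between 2.79 and 3.87. PTGS2, the inducible cyclooxygenase, rose 34.4-fold from -1.46, -1.97, -0.66 and -0.50 to 3.66, 3.89, 4.10 and 4.18. The cyclin-dependent kinase inhibitor CDKN1A (p21) rose 33.8-fold, and its replicate 4 PHE array, at 4.93, stood above the other PHE arrays at 3.70 to 3.79. CH25H, which makes 25-hydroxycholesterol, rose 31.0-fold although its untreated arrays ranged from -2.44 to 0.07. PLEK, a substrate of protein kinase C in blood cells, rose 25.0-fold, the immediate early transcription factor JUNB 18.2-fold, and TIPARP, an ADP-ribosyltransferase induced by the aryl hydrocarbon receptor, 18.0-fold. For none of these 10 genes did an untreated array reach the lowest PHE array.

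**Figure D1:**
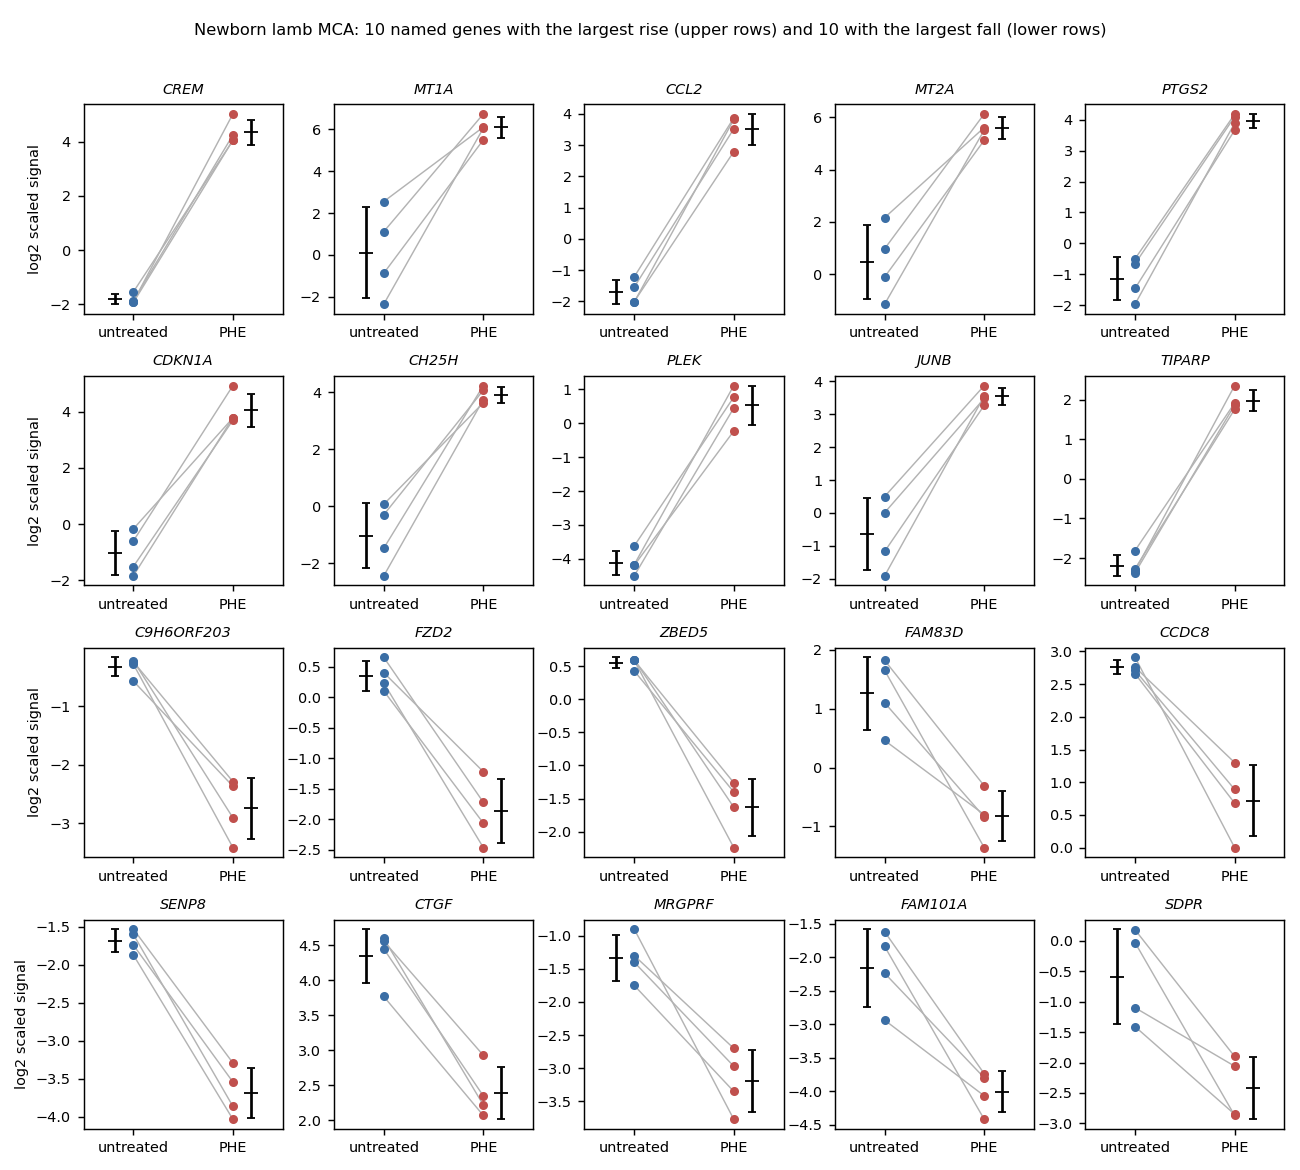
Log2 signal relative to each array's 75th percentile for 10 named genes that rose most and 10 that fell most, each with its own vertical scale. Blue points are the 4 untreated and red points the 4 PHE arrays, grey lines join arrays with the same replicate number, and black bars give the mean and SD; in every panel the 4 PHE arrays lie on one side of the 4 untreated arrays.

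A further set of genes could not be measured without PHE. Of the genes that rose 54 had no untreated array well above background, and for these the rise is a lower bound, computed against the lowest signal well above background on each array. The inflammatory cytokine IL6 measured 3.38, 3.81, 3.87 and 3.79 after PHE and was not well above background on any untreated array, a rise of at least 364-fold (adjusted p = 1.53e-07). DUSP5, a nuclear phosphatase that inactivates the MAP kinases ERK1 and ERK2, rose at least 107-fold, with PHE arrays at 1.59, 1.75, 1.84 and 3.31. SLCO4A1, a transporter of organic anions including thyroid hormone, rose at least 45.0-fold, CD83, a surface marker of mature dendritic cells, at least 22.8-fold, and HK2, the inducible hexokinase, at least 18.7-fold on the probe used. A second HK2 probe had a log2 fold change of 2.88. Their PHE arrays lay between -0.87 and 1.5. Fitted folds of genes above background on only some untreated arrays are uncertain too, and 3 of 4 such arrays were above background for ARG2, DUSP4, IRF8, PFKFB3, PLAU, PLAUR and SGK1, whose folds are given below. In the opposite direction 19 genes that fell were well above background on no PHE array.

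Of 24 tested immediate early genes 19 rose and 1 fell, against 30.2% higher and 20.3% lower among all genes with a symbol, and the median log2 fold change was 2.06. Of the 6 named without the study's list 4 rose. JUNB led, followed by BTG2, an antiproliferative factor, at 17.8-fold, MYC at 16.6-fold and EGR3 at 14.3-fold. MYC moved from -0.09, -1.04, 0.60 and 0.27 to 3.90, 3.84, 3.88 and 4.35, and its groups stood far apart. EGR3 rose from -3.90, -3.92, -0.86 and -1.36 to 0.82, 1.26, 1.23 and 2.01, so that untreated replicates 3 and 4 already stood above replicates 1 and 2. Its log2 fold change of 3.84 ran from 3.11 to 4.39 across the alternative settings. The call of EGR3 was lost with the methods' test after adjustment (adjusted p = 0.0648). NR4A1, an orphan nuclear receptor, rose with a log2 fold change of 3.51, KLF10 with 3.17 and the stress factor ATF3 with 2.96. EGR1, a growth-response zinc finger factor, rose 3.41-fold and ZFP36, which destabilises cytokine mRNAs, 3.42-fold. Other probes of EGR1 had log2 fold changes of 1.99 and 3.0 and another of ZFP36 2.97, against 1.77 for the probes used.

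FOS, the partner of the JUN proteins in the AP-1 factor, did not pass the test. Its untreated arrays were 0.73, -2.62, 0.59 and 2.30 and its PHE arrays 1.15, 2.09, 3.27 and 3.67, so that the groups overlapped, with a log2 fold change of 2.30 ± 0.96 (adjusted p = 0.106). With the same-numbered arrays as pairs FOS passed (adjusted p = 0.0309), and without untreated replicate 2 its difference was 1.34. Without untreated replicate 4 it was 2.98 and FOS passed (adjusted p = 0.0453). JUN had a log2 fold change of -0.32 and CYR61, a matricellular protein, of -0.29, and neither passed. The matricellular growth factor CTGF, a target of YAP and serum response factor, was the member that fell, from 4.56, 3.77, 4.45 and 4.60 to 2.93, 2.07, 2.35 and 2.22 (3.87-fold lower, adjusted p = 0.000497).

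Genes that feed back on cAMP and calcium signalling moved upward: 10 of 13 tested rose and 0 fell, with a median of 2.05, and 3 of 4 named without the study's list rose. CREM is given above. PDE4B, a phosphodiesterase that breaks down cAMP, rose to between 0.72 and 1.02 from untreated arrays of which 1 of 4 was well above background, so that the size is uncertain: its fitted log2 fold change of 6.17 was 3.93 with the normexp correction. SIK1, a kinase that restrains CREB-driven transcription, rose 9.29-fold. RCAN1, an inhibitor of the calcium-activated phosphatase calcineurin, rose 6.13-fold from 2.50, 1.80, 2.43 and 2.77 to 4.69, 4.93, 4.79 and 5.55. RGS2, which accelerates the switching off of Gq proteins, rose 2.09-fold (adjusted p = 0.0182), and untreated replicate 2, at 1.83, overlapped the lowest PHE array at 1.77. This call was lost in the fit to all 32 arrays (adjusted p = 0.142) and with the methods' test after adjustment (0.0747). PRKACA, the catalytic subunit of protein kinase A, had a log2 fold change of -0.15. RGS3 missed the threshold at -0.59 (adjusted p = 0.0525) and passed with same-numbered arrays as pairs (adjusted p = 0.0319).

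In the MAP kinase list 10 of 19 tested members rose and 3 fell. The list's median was 0.92, and both members named without the study's list rose. The risen members include inhibitors of the cascade as well as kinases. DUSP4, another ERK phosphatase, rose 6.19-fold, ERRFI1, an inhibitor of the epidermal growth factor receptor, 7.02-fold, and SPRY2, an inhibitor of receptor tyrosine kinase signalling, had a log2 fold change of 1.65. Among kinases MAP3K2 rose 4.08-fold, from between -0.37 and 0.54 to between 1.76 and 2.60. The 3 members that fell were MAPK14 (p38 alpha, log2 fold change -1.08), MAP3K6 (-0.83) and the ERK phosphatase DUSP6 (-1.02). DUSP1, the phosphatase of p38 and JNK, did not pass, with untreated arrays at 3.21, 1.67, 2.83 and 2.96 and PHE arrays at 2.14, 1.99, 2.92 and 2.96.

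Cytokines and chemokines rose in most of the tested cases. Of 33 with a probe 21 were tested and 17 of these rose, with a median log2 fold change of 4.88; of 15 tested members named without the study's list 11 rose. Because 12 members entered the test through the PHE arrays alone, the count is a description. Of the 9 above background on all 8 arrays 5 rose. IL8 (CXCL8), the main neutrophil attractant, measured -3.82, -4.22, -2.75 and -4.64 untreated, on 3 of 4 arrays above background, and 4.40, 4.68, 5.42 and 4.60 after PHE, a fitted rise of 396-fold. IL1B rose 208-fold in the fit, with 2 of 4 untreated arrays above background and PHE arrays at 2.30, 2.59, 3.38 and 2.24. IL1A, its relative that acts as an alarmin, rose at least 12.4-fold. The anti-inflammatory members rose too, with fitted log2 fold changes of 5.65 for IL1RN, the interleukin-1 receptor antagonist, and 4.88 for IL10. TNF stood at 5.57, CCL4L1, a chemokine of the MIP-1 beta group, at 5.88, CXCL5 at 5.34 and the granulocyte growth factor CSF3 at 5.00. The fitted values of members dim in untreated vessel depend on background and give an order only loosely. CXCL10, an interferon-induced chemokine, had -0.83, MIF -0.30 and XCL1 0.48, and none passed. CXCL1 rose (1.96), but CXCL1 and CXCL2 names were in conflict for its probe.

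**Figure D2:**
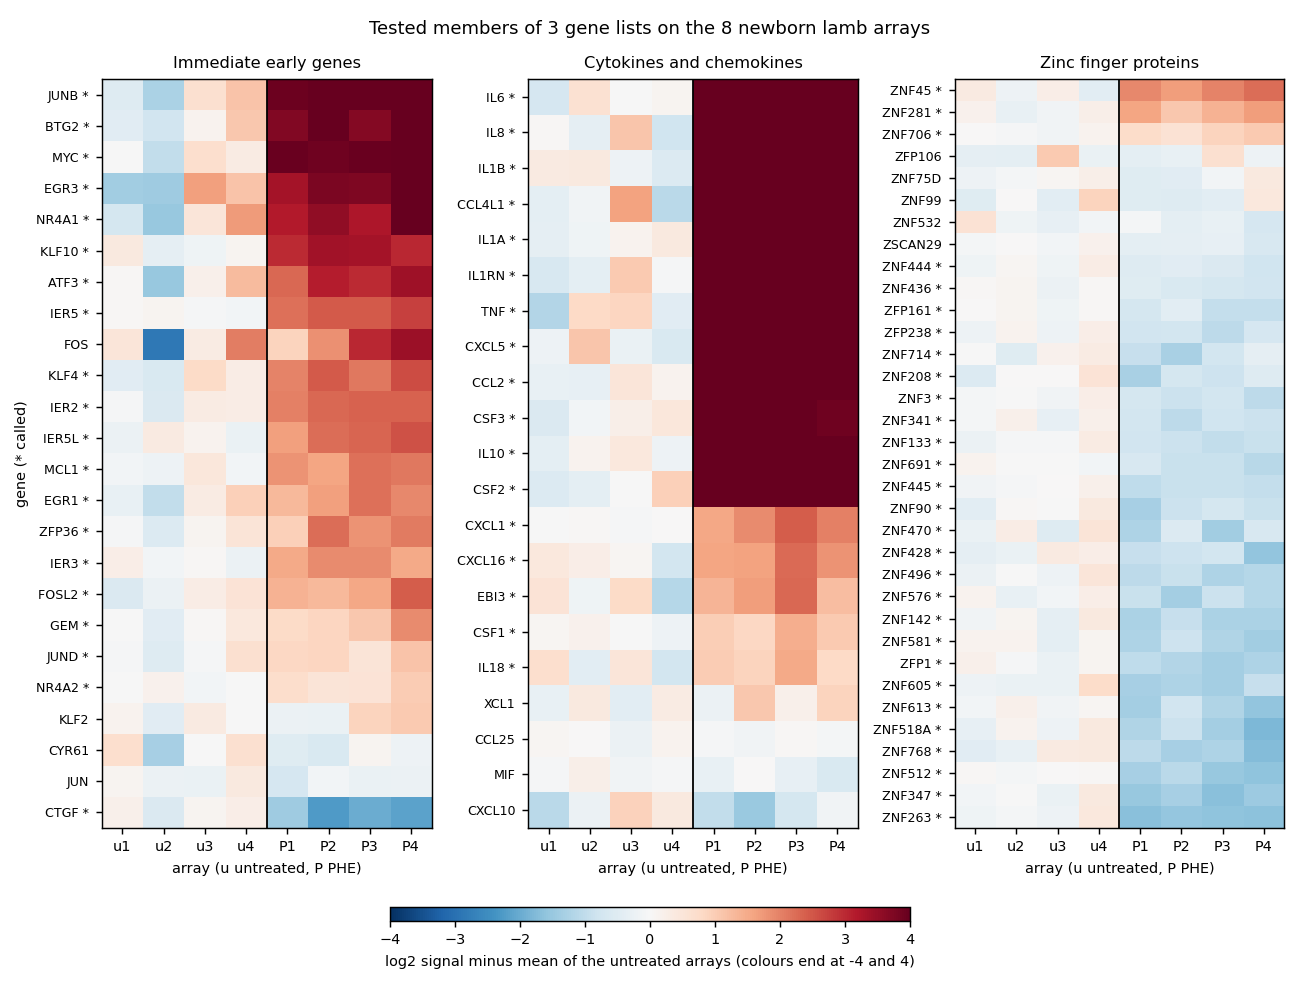
Each cell is the log2 signal of 1 array minus the mean of the 4 untreated arrays of that gene, for every tested member of 3 lists; columns are the untreated (u) and PHE (P) arrays by replicate number and asterisks mark genes that changed. In the first 2 panels the PHE columns are mostly red, with CTGF blue, and in the zinc finger panel most are pale blue, with ZNF45, ZNF281 and ZNF706 red.

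Among cytokine and pattern receptors and their adaptors 20 of 28 tested rose and 0 fell, with a median of 1.15, and 6 of 10 named without the study's list rose. Of the 20 above background on all 8 arrays 13 rose, and the other 7 rises were of members above background on only some or none of the untreated arrays. IRAK2, a kinase below interleukin-1 and Toll-like receptors, rose at least 4.96-fold and TNFRSF10B, a death receptor for TRAIL, at least 7.45-fold. TLR2, which senses bacterial lipoproteins, rose 9.86-fold from -4.27, -5.18, -4.03 and -5.45 to -1.35, -1.68, -0.70 and -1.99. IL1RL1, the interleukin-33 receptor, rose 8.95-fold in the fit. TLR2 and IL1RL1 each had 2 of 4 untreated arrays above background, and with the normexp correction their log2 fold changes of 3.30 and 3.16 were 1.86 and 1.51. IFNAR1, an interferon receptor chain, had -0.03. CD14, the co-receptor for endotoxin, had 1.06 with overlapping groups, at -0.58 to 2.31 untreated and 1.76 to 2.47 after PHE, and did not pass, whereas other CD14 probes with log2 fold changes of 1.16 and 1.19 did.

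All 12 tested members of the NF-kB list rose, with a median of 2.02. Both members whose probe used was named without the study's list were among them. NF-kB is the transcription factor family behind much cytokine transcription, and its own inhibitors are among its first targets. NFKBIA, the main such inhibitor, rose 5.31-fold from 1.39, 1.23, 1.93 and 1.1 to 3.55, 4.11, 4.04 and 3.58. NFKBIZ, a nuclear inhibitor and co-activator, rose 11.8-fold, the subunit RELB 9.14-fold and TIFA, an adaptor below TNF receptors, 7.76-fold. IKBKB, the kinase that releases NF-kB, had 1.96 on the probe used, which was named through the study's list. Another probe, named in the files, had 0.29 and did not pass.

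In the JAK-STAT list 7 of 12 tested rose and 0 fell, with a median of 1.34, and the only member named without the study's list did not pass. The feedback inhibitor SOCS3 rose 36.6-fold in the fit, from -5.69, -5.89, -3.86 and -4.18, where 1 of 4 arrays was above background, to -0.47, 0.44, 0.20 and 0.97, and its log2 fold change of 5.19 was 3.16 with the normexp correction. CISH, another feedback inhibitor, rose 4.5-fold, the STAT phosphatase PTPN2 4.14-fold and the repressor BCL6 at least 4.03-fold. JAK1 had -0.05. STAT3 had 0.55, an adjusted p of 0.0193 and a change below 1.5-fold.

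The interferon list was mixed, with 7 of 15 tested higher, 2 lower and a median of 0.21, and only 1 of 7 named without the study's list rose. IRF1 moved from -3.27, -3.24, -2.93 and -2.82 to 0.45, 1.29, 1.21 and 1.24, a 17.3-fold rise. IRF8 rose 10.0-fold and IRF4 at least 4.99-fold, both regulators of immune cell fate, and the scramblase PLSCR1 rose 3.14-fold. The classical interferon effectors MX1 (-0.39), MX2 (-0.34) and ISG15 (-0.27) and the class I light chain B2M (0.21) did not pass the test.

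Among molecules of leukocyte adhesion and the leukocyte surface 11 of 12 tested rose, 4 of them among the 5 that were above background on all 8 arrays. The list's median was 1.89, and 3 of 4 tested members named without the study's list rose. ICAM1, the endothelial ligand of leukocyte integrins, rose 11.8-fold from between -1.30 and -0.56 to between 2.47 and 2.79. SELP (P-selectin), on which leukocytes roll, rose 11.4-fold from 0.98, -0.13, 0.63 and 1.39 to 3.78, 4.52, 4.57 and 4.06. SLAMF7, a receptor of lymphoid and myeloid cells, rose at least 1.92-fold. ITGB2, the leukocyte integrin beta chain, had 0.57 with overlapping groups.

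PTGS2 rose as given above. The constitutive cyclooxygenase PTGS1 fell 1.68-fold, from 1.04, 0.75, 1.37 and 0.92 to 0.45, 0.23, 0.14 and 0.29 (adjusted p = 0.00634), a call lost in the fit to all 32 arrays (adjusted p = 0.383). All 5 tested members of the prostanoid list were named without the study's list, and the other 3 did not pass, among them PTGDS, a prostaglandin D synthase, at -0.08 and ALOX5AP at -0.08. The list's median was -0.08 and turned to 0.14 with the normexp correction.

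In the metal and oxidative stress list 12 of 18 tested rose and 1 fell, with a median of 1.04, but of the 4 members named without the study's list 0 rose and 1 fell. HMOX1, the inducible haem oxygenase, rose at least 6.68-fold with PHE arrays at -3.05, -2.63, -1.08 and -1.44, and HMOX2, the constitutive form, 3.84-fold. TXNIP, an inhibitor of thioredoxin, fell with a log2 fold change of -1.65. The iron store FTH1 and thioredoxin (TXN) had 0.15 and 0.18. NFE2L2, the regulator of antioxidant genes, rose by 0.99 on the probe used, which was named through the study's list. Other probes, named in the files, had 0.03 and -0.00.

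The heat shock list had 9 of 15 tested higher and 1 lower, with a median of 0.71, and 1 of the 4 named without the study's list rose. HSPA4, an HSP70 relative, rose 10.4-fold in the fit, although 1 of 4 untreated arrays was above background and untreated replicate 4, at -2.65, overlapped the PHE arrays at -2.80 to -1.42. Its log2 fold change of 3.38 was 1.61 with the normexp correction, and the call was lost in the fit to all 32 arrays (adjusted p = 0.116) and with the methods' test after adjustment (0.113). The co-chaperone BAG3 rose 3.49-fold, HSPH1 2.67-fold and HSPA13 2.43-fold, and the call of HSPH1 was lost in the fit to all 32 arrays (adjusted p = 0.163). HSPA5, the chaperone of the endoplasmic reticulum, had 0.30 and CRYAB, a small heat shock protein, 0.34.

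The amino acid and endoplasmic reticulum stress list, which holds ATF4 and its targets, rose in 18 of 22 tested members with 0 lower and a median of 1.59, and in 3 of 4 named without the study's list. CTH, which makes cysteine from cystathionine, rose 13.8-fold from -2.07, -1.30, -1.24 and -1.55 to 2.38, 2.46, 1.66 and 2.50. CHAC1, which degrades glutathione, rose 9.30-fold, and its PHE arrays split, at 3.16 and 2.95 for replicates 1 and 3 and at 1.36 and 0.74 for replicates 2 and 4. The pseudokinase TRIB1 rose 8.38-fold, with a log2 fold change of 3.07 against 5.34 on another probe, and the transcription factor CEBPB 7.30-fold. The amino acid transporters SLC7A1, SLC7A5, SLC3A2 and SLC38A2 rose by 2.51, 2.06, 2.06 and 1.55 on the log2 scale. The tRNA synthetases GARS (0.16) and NARS (-0.11) did not pass.

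Glucose metabolism and the hypoxia response rose in 11 of 18 tested members with 0 lower and a median of 1.30, and in 4 of 8 named without the study's list. Of the 14 above background on all 8 arrays 8 rose. SLC2A3, a high-affinity glucose transporter, rose 6.65-fold from 1.14, 1.19, 0.80 and 1.61 to 3.75, 4.18, 3.4 and 4.35, and PFKFB3, which makes the activator of phosphofructokinase, 5.74-fold. HK2 is given above. BHLHE40, a repressor induced by hypoxia, rose 13.6-fold to between 4.47 and 4.66, and HIF1A itself had a log2 fold change of 1.71. ALDOA (0.05), GAPDH (0.42), SLC2A1 (0.23) and VHL (-0.47) did not pass.

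Among angiogenic factors and receptors 12 of 31 tested rose and 2 fell, with a median of 0.69, and 3 of 16 named without the study's list rose. Of the 23 above background on all 8 arrays 8 rose and 1 fell. Among all genes with a symbol 30.2% were higher, and among all named without the list 20.8%. EPHA2 rose at least 14.9-fold, with PHE arrays at -1.28, -1.25, -0.90 and -0.18, and EPHA1 11.6-fold, from between -2.30 and -1.17 to between 1.68 and 2.07. Both are receptors for ephrin ligands. The members that fell were the ephrins EFNA4 (-1.11) and EFNB1 (-0.92), and whether they are ligands of these 2 receptors in this vessel was not tested. VEGFA, the main endothelial growth factor, rose 4.70-fold from -3.30, -2.70, -3.13 and -2.47 to -0.65, -0.89, -0.75 and -0.37, and ADAMTS4, a protease of matrix proteoglycans, 5.46-fold in the fit, with 1 of 4 untreated arrays above background and a log2 fold change of 2.45 that was 1.24 with the normexp correction. ANGPT2 rose by 1.65. Many members named in the files did not pass, among them NRP1 (0.11), ANGPT1 (-0.01), HGF (0.12), JAG1 (-0.00) and the endothelin genes EDN1 (0.24) and EDNRA (0.30). THBS1, an inhibitor of angiogenesis, had 1.66 with overlapping groups (adjusted p = 0.0883) and passed with same-numbered arrays as pairs (adjusted p = 0.0101).

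In the TGF-beta and BMP list 11 of 27 tested rose and 3 fell, with a median of 0.26, and 6 of 17 named without the study's list rose and 2 fell. Of the 23 above background on all 8 arrays 8 rose and 3 fell. Among all genes with a symbol 30.2% were higher and 20.3% lower. Inhibitors of the pathway were among the risen members. SMAD7, which blocks TGF-beta receptors, rose 6.13-fold in the fit, with 1 of 4 untreated arrays above background, and its log2 fold change of 2.62 was 1.43 with the normexp correction. The corepressor TGIF1 rose 4.99-fold and the decoy receptor BAMBI 4.14-fold, from -0.26, -0.39, -0.09 and -0.45 to 1.35, 1.86, 1.48 and 2.32. SNAI1, a repressor of epithelial genes, rose 4.42-fold from between -2.29 and -2.27 to between -0.30 and 0.02. The receptors BMPR1B (-0.59) and BMPR2 (-0.66) and the ligand BMP6 (-0.64) fell, and TGFBR1 (-0.05) did not pass. INHBA had 0.04 on the probe used and 2.33, past the threshold, on another.

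In the list of clotting, fibrinolysis and complement 9 of 11 tested rose and 0 fell, with a median of 1.32, and 1 of the 2 named without the study's list rose. Of the 7 above background on all 8 arrays 6 rose. PLAUR, the receptor of urokinase, rose 20.7-fold from -3.59, -4.36, -2.51 and -4.58 to 0.16, 0.04, 1.62 and 0.63, and PLAU, urokinase itself, 7.04-fold. TFPI2, a protease inhibitor of the vessel wall, rose 4.85-fold and the complement regulator CD46 2.69-fold, a call lost in the fit to all 32 arrays (adjusted p = 0.0542). C5AR1, the receptor for complement C5a, had 0.99 (adjusted p = 0.0796) and passed with same-numbered arrays as pairs (adjusted p = 0.00524), and another probe, at 1.16, passed.

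Of 13 tested genes of contraction and of its control 5 rose and 1 fell, with a median of 0.30, and the counts among the 11 named without the study's list were 3 and 1. The shares higher were 30.2% of all genes with a symbol and 20.8% of all named without the list. HTR2A, the serotonin receptor of vascular muscle, rose 2.85-fold from -3.64, -3.76, -3.31 and -3.68 to -2.08, -2.85, -1.86 and -1.57. GUCY1B3, a subunit of the nitric oxide receptor, rose 2.16-fold. Both calls were lost in the fit to all 32 arrays (adjusted p = 0.0759 and 0.104). MYLK, the kinase that starts smooth muscle contraction, measured 5.84 to 6.50 untreated and 5.84 to 6.39 after PHE. GJA4 (connexin 37) fell 2.2-fold at an adjusted p of 0.049 with overlapping groups. This call was lost when any 1 of untreated replicates 1, 2 or 3 or PHE replicates 1, 3 or 4 was left out (adjusted p from 0.0506 to 0.126), and the name of its probe was in conflict with another gene.

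Of the 9 neuropeptides and vasoactive peptides tested 5 rose, 1 of them among the 4 above background on all 8 arrays, with a median of 0.60, and 4 of the 7 named without the study's list rose. GALP, a galanin relative, rose at least 7.67-fold, the corticotropin-releasing factor relative UCN at least 9.22-fold, with PHE arrays at -0.64, -1.74, -2.02 and -1.93, and TAC1, the precursor of substance P, at least 5.32-fold. POMC rose 2.41-fold (adjusted p = 0.0428), a call lost without any 1 of untreated replicates 1, 3 or 4 or PHE replicates 1, 3 or 4 (adjusted p from 0.0507 to 0.0915). OXT had 0.57, below 1.5-fold, and ADM (adrenomedullin) had 0.50 on the probe used and 1.03, past the threshold, on another.

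Sterol and polyamine genes rose in 10 of 12 tested cases with 0 lower and a median of 1.14, and in 1 of 2 named without the study's list. ARG2, the arginase that competes with nitric oxide synthase for arginine and feeds polyamine synthesis, rose 26.1-fold from -4.0, -4.05, -3.37 and -3.27 to 0.71, 0.82, 0.98 and 1.62. IDI1 of the isoprenoid pathway rose 6.27-fold, while SQLE (0.13) and CYP51A1 (0.33) did not pass.

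In the list of PPAR and lipid nuclear receptors 5 of 17 tested were higher and 3 lower, with a median of 0.41, against 30.2% higher and 20.3% lower among all genes with a symbol. Among the 7 named without the study's list 0 were higher and 1 lower. That member was PPARG, the nuclear receptor that drives fat storage genes, at -0.97. GPD1, a glycerol phosphate dehydrogenase, fell at least 2.40-fold, from -4.25, -3.67, -3.57 and -2.22 to below background on 4 of 4 PHE arrays, and MLYCD, which degrades malonyl-CoA, fell 2.2-fold from between -2.06 and -1.80 to between -3.59 and -2.61. With the normexp correction 0 members of the list were lower. NRIP1, a nuclear receptor corepressor, rose 2.38-fold. PDK4, which restrains pyruvate oxidation, rose 3.05-fold (adjusted p = 0.0395), a call lost without any 1 of untreated replicates 1, 2 or 4 or PHE replicates 1, 3 or 4 (adjusted p from 0.0577 to 0.0964). FABP4 had -0.60 and did not pass, with the spot of untreated replicate 1 removed as an outlier. Without PHE replicate 2 it had -0.88 and passed (adjusted p = 0.023).

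Glucocorticoid-induced genes split, with 5 of 10 tested higher, 1 lower and a median of 0.58, and with 1 higher and 1 lower of the 3 named without the study's list. SGK1, a kinase of ion transport, rose 9.83-fold, CEBPD 8.23-fold, from 2.32, 2.58, 3.20 and 2.70 to 5.43, 5.76, 5.63 and 6.13, and CRISPLD2 4.55-fold. FKBP5 (0.10) and DUSP1 did not pass, and the transcriptional coregulator CITED2 fell, with -1.57.

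In the list of cell cycle and apoptosis genes 10 of 17 tested rose and 1 fell, with a median of 1.23, and 2 of 7 named without the study's list rose and 1 fell. CDKN1A is described above. The stress sensors GADD45A and GADD45B rose 11.1-fold and 8.59-fold, GADD45A from 0.77, 0.42, 0.99 and -0.62 to 3.75, 3.79, 3.88 and 4.02. MCM2, a subunit of the replicative helicase, rose 5.65-fold. The pro-apoptotic BAX fell, with -0.88.

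**Figure D3:**
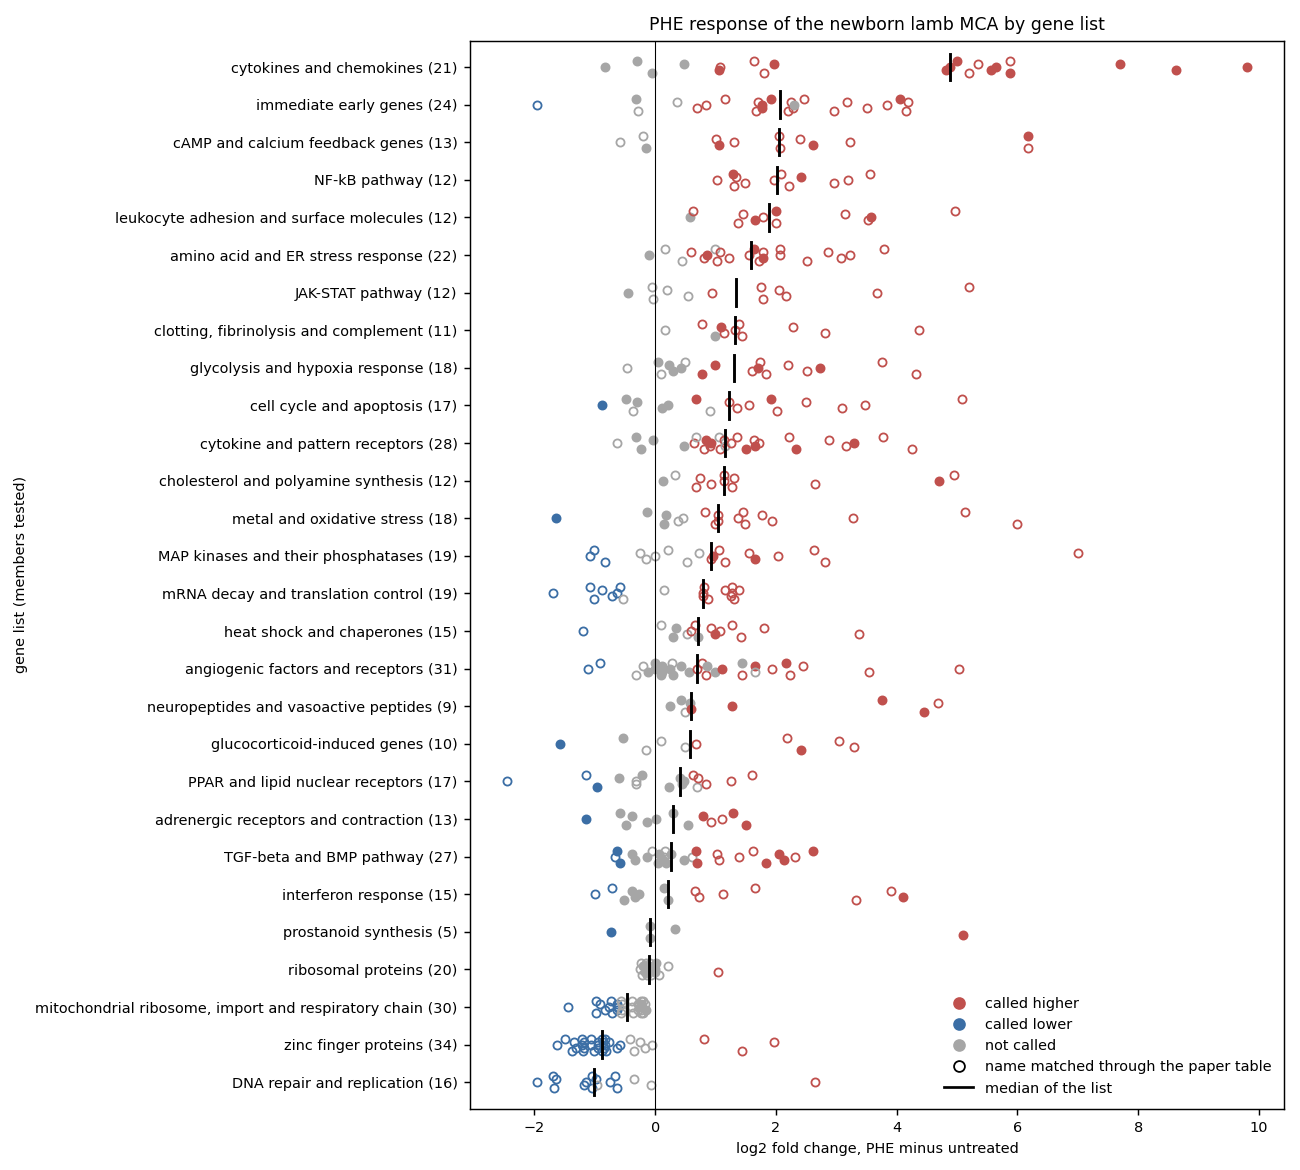
Log2 fold change with PHE of every tested member of 28 gene lists, ordered by the median of the list (black bar); the number of tested members stands in brackets, red and blue points rose and fell, grey points did not pass, and open points carry a name matched through the study's list. The medians run from -1.02 for DNA repair and replication to 4.88 for cytokines and chemokines, of which 12 of 21 tested members entered the test through the PHE arrays alone.

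The largest falls among named genes above background on all 8 arrays were those of C9H6ORF203, FZD2, ZBED5, FAM83D and CCDC8. C9H6ORF203 fell 5.36-fold, from -0.22, -0.24, -0.57 and -0.28 to -2.91, -2.29, -2.37 and -3.42 (log2 fold change -2.42 ± 0.24, adjusted p = 0.000178). Across the alternative settings its log2 fold change ran from -2.58 to -1.45. FZD2, a receptor for Wnt ligands and named in the files themselves, fell 4.63-fold, from 0.65, 0.40, 0.10 and 0.23 to -1.72, -1.22, -2.06 and -2.46. ZBED5 fell 4.55-fold and CCDC8, a partner of the growth regulator CUL7, 4.12-fold, and its replicate 4 PHE array was lowest at 0.00. SENP8, which removes the ubiquitin-like protein NEDD8, fell 3.99-fold. Its log2 fold change of -2.0 was -0.90 with the normexp correction, and the call was lost in the fit to all 32 arrays (adjusted p = 0.0634). SDPR (cavin-2), which shapes caveolae, fell 3.56-fold from 0.18, -1.10, -1.41 and -0.03 to -1.90, -2.06, -2.85 and -2.87. MRGPRF, an orphan receptor, and FAM101A fell 3.63-fold and 3.60-fold. The log2 fold change of MRGPRF ran from -2.03 to -0.91 across the alternative settings. With the normexp correction the fall of FAM101A no longer passed (adjusted p = 0.117), nor did those of GPD1 (0.529), MLYCD (0.367), MRPL44 (0.0606) and TIMM10B (0.15). All 10 of the largest falls lay between -2.42 and -1.83 on the log2 scale, against 4.17 to 6.17 for the 10 largest rises.

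Falls prevailed in the lists of DNA repair, of zinc finger proteins and of mitochondrial genes. Their members owe their names almost wholly to the study's list, with 0, 0 and 2 tested members named without it, so that the counts are not independent evidence of direction. Of 16 tested DNA repair and replication genes 12 fell and 1 rose, with a median of -1.02. The replicative helicase subunit MCM2, which rose 5.65-fold, was counted in the cell cycle list and not here. SMARCAD1, a chromatin remodeller of DNA end resection, fell 3.22-fold, from 0.31, 0.10, 0.19 and 0.22 to -1.67, -0.86, -1.37 and -2.03, and ORC3, of the origin recognition complex, 3.19-fold. TERT, the catalytic subunit of telomerase, fell at least 2.01-fold (adjusted p = 0.0281), a call lost without any 1 of untreated replicates 2, 3 or 4 or PHE replicates 1 or 3 (adjusted p from 0.0503 to 0.0643). With the normexp correction TERT had -0.22 (adjusted p = 0.74), and the call was also lost with the methods' test after adjustment (0.0983) and without a filter on dim probes (0.0503). POLB, the polymerase of base excision repair, was the member that rose, with 1 of 4 untreated arrays above background and a log2 fold change of 2.64 that was 1.09 with the normexp correction. RAD50 (-0.96), XPC (-0.07) and LIG1 (-0.35) did not pass.

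Zinc finger proteins fell in 26 of 34 tested members and rose in 3, with a median of -0.88; with the normexp correction 8 fell and 2 rose. ZNF263 moved from -1.14, -1.03, -1.16 and -0.53 to -2.64, -2.50, -2.57 and -2.62, and ZNF347 fell 2.82-fold. ZNF45 and ZNF281 rose 3.89-fold and 2.69-fold, each with 1 of 4 untreated arrays above background. With the normexp correction their log2 fold changes of 1.96 and 1.43 were 0.96 and 0.77, and ZNF281 did not pass (adjusted p = 0.0555), nor did it in the fit to all 32 arrays (0.125). The falls spanned -1.62 to -0.59.

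Genes of the mitochondrial ribosome, of protein import and of the respiratory chain were lower in 11 of 30 tested members and higher in 0, with a median of -0.47. MRPL44 fell 2.73-fold, with its replicate 4 PHE array at -4.56 and the others at -3.12 to -2.95, MRPL51 1.98-fold, MRPS34 1.89-fold and the import factor TIMM10B 1.98-fold. MRPL51 moved from 1.23, 1.42, 1.36 and 1.53 to 0.26, 0.55, 0.34 and 0.44. Respiratory chain subunits such as COX5B (-0.17), UQCRB (-0.22) and ATP5E (-0.23) did not pass. Of 20 tested proteins of the cytosolic ribosome 1 rose, RPS4X at 2.06-fold (lost in the fit to all 32 arrays, adjusted p = 0.157), and 0 fell (median -0.10), with 0 of the 9 named without the study's list changed. RPS20 had 0.00 on the probe used and 1.08, past the threshold, on another.

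Factors of mRNA decay and translation went both ways, with 10 of 19 tested higher, 7 lower and a median of 0.79, all named through the study's list. AGO2, which carries small RNAs, rose 2.46-fold, from 0.14, 0.03, 0.03 and 0.26 to 1.73, 0.94, 1.12 and 1.87, while its partner TNRC6A fell 3.24-fold and the microRNA processing enzymes DICER1 (-0.63) and DGCR8 (-0.71) fell. TOB1, which recruits the deadenylase, rose 2.60-fold and the release factor ETF1 2.43-fold. EIF4EBP1, a translational inhibitor, had -0.54, below 1.5-fold. The scaffold EIF4G1 fell by 0.88 on the log2 scale on the probe used and had 0.44 on another.

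Markers of the vessel's own cells and of other cells were read on the same arrays, and in such bulk samples fewer cells of a type and less RNA per cell cannot be told apart. Smooth muscle markers were high and did not pass the test in 3 of 3 cases (CNN1 -0.20, MYLK -0.14, CALD1 0.07), and their summed log2 level was 7.33 to 8.03 untreated and 7.25 to 7.78 after PHE. Of 5 endothelial markers with a probe KDR and TEK were at or near background on all arrays, ERG rose (1.43) and NOS3 had -0.39. Among macrophage markers 2 of 4 tested rose, CD68 (1.45) and FCGR1A (2.00), against 30.2% higher among all genes with a symbol. Of the 3 above background on all 8 arrays 1 rose, and the other risen marker entered the test through the PHE arrays alone. CD14 (1.06) and TYROBP (-0.20) did not pass and ITGAM was not well above background. Other CD14 probes, at 1.16 and 1.19, passed. The summed macrophage level was 1.88, 1.17, 2.53 and 0.33 untreated and 2.12, 2.52, 2.81 and 2.41 after PHE. Untreated replicate 4 was the lowest, as it was for CD14 (-0.58, the others 0.69 to 2.31), ITGB2 (-4.24, the others -2.56 to -1.85) and ALOX5AP (-3.72, the others -2.32 to -1.91). Without that array 16 cytokines and chemokines, 18 receptors and 9 adhesion molecules rose, against 17, 20 and 11 with it, and 1 receptor fell. Over all genes and probes 843 were then higher and 774 lower, against 905 and 884 with it. The list counts include members that entered the test through the PHE arrays alone and are a description. The neutrophil marker S100A9, a calprotectin subunit, rose (adjusted p = 0.00159), with PHE arrays at -0.67 to 0.27 and 1 of 4 untreated arrays, at -2.87, well above background. The mast cell tryptase TPSAB1 rose (1.67) with KIT and MS4A2 not above background. TPSAB1 entered the test through the PHE arrays alone, so that its call is a description. The T cell receptor gene TRAC fell (-1.18) with CD3D and CD4 not above background. Of red cell genes HBA1 fell (-1.0) and HBB had 0.09, their summed level being 4.56 to 5.24 untreated and 3.68 to 4.07 after PHE. Among fibroblast markers DCN rose (0.78), and COL1A1 (1.30), COL1A2 (1.32) and COL3A1 (0.87) did not pass, although another COL1A2 probe, at 0.80, did. Of astrocyte and oligodendrocyte markers 1 of 3 tested rose, S100B (1.37), with AQP4 on 0 of 8 arrays above background, and their summed level was -0.80 to 0.08 untreated and 0.14 to 1.31 after PHE. Of fat cell markers 1 of 3 tested fell, GPD1, while FABP4 had -0.60, LPL had 0.23 and LEP was on 0 of 8 arrays above background, and their summed level was -1.52, 0.38, -0.09 and 0.18 untreated, the first without the removed FABP4 spot, and -0.63 to 0.19 after PHE. CD68, FCGR1A and S100A9 thus moved with the cytokine, receptor and adhesion lists, but S100A9 and either CD68 or FCGR1A entered the test through the PHE arrays alone. CD14 passed on other probes but not on the probe used, and TYROBP did not pass. The part of these markers in those rises was not tested.

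The newborn response was set against that of the premature fetus (96 days of gestation) and of the adult sheep (2 years by the labels, 18 to 24 months by the methods), each with 4 untreated and 4 PHE arrays on other slides. The near-term fetus was not compared here. The log2 fold change differed between newborn and premature MCA for 70 of 9945 genes and probes (0.704%), above the premature value for 12 (0.121%) and below it for 58 (0.583%). With same-numbered arrays as pairs, which the arrays of both ages bear out, 338 differed, 109 above and 229 below. In a fit to all 32 arrays 2 differed and with the normexp correction 7. Without newborn PHE replicate 1 or 2 the count was 45 and 42, without premature untreated replicate 1, 3 or 4 it was 40, 41 and 41, and without premature PHE replicate 3 it was 38.

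Where the newborn value was lower, the genes named here had a positive log2 fold change in the fetus. CEBPB had log2 fold changes of 2.87 in the newborn and 6.45 in the premature MCA, a difference of -3.58 ± 0.21 (adjusted p = 3.32e-07). This difference did not pass in the fit to all 32 arrays (adjusted p = 0.179) or with the normexp correction, where it was -1.49 (adjusted p = 0.567). Its untreated newborn arrays, at -2.08 to -1.68, lay above the untreated premature arrays at -4.90 to -4.72, of which 2 of 4 were well above background, and its PHE arrays lay at 0.89 to 1.29 in the newborn and 1.18 to 1.92 in the fetus. CEBPD had 3.04 and 5.56, with untreated arrays at 2.32 to 3.20 in the newborn and -0.09 to 0.27 in the fetus. RGS2 had 1.06 and 3.92, ERRFI1 2.81 and 4.66, and IFRD1, a transcriptional coregulator, 2.87 and 4.49. In the fit to all 32 arrays the differences of RGS2 (adjusted p = 0.271), ERRFI1 (0.573) and IFRD1 (1.0) did not pass, and with the normexp correction that of IFRD1 was -0.66 (adjusted p = 0.567). The difference of CEBPD passed in both. It was 1 of only 2 differences that passed in the fit to all 32 arrays, so most of those that follow did not pass there. NFKBIA (2.41 and 4.24), NFKBIZ (3.56 and 5.38), IRF1 (4.11 and 6.06) and EGR1 (1.77 and 3.92) belong here too. So does IL1A, but it was well above background on 0 of 4 untreated arrays at either age, so that its fold changes rest on background. Its PHE arrays lay at -2.05 to -0.32 in the newborn and at 0.78 to 2.35 in the fetus. DUSP1 had -0.16 in the newborn and 2.12 in the fetus, where its untreated arrays lay at -0.04 to 0.95, against 1.67 to 3.21 in the newborn. For CEBPB, CEBPD, ERRFI1, RGS2, IFRD1 and DUSP1 the untreated newborn arrays all lay above the untreated premature arrays.

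Where the newborn value was higher, MARCKSL1, a substrate of protein kinase C, had 2.84 in the newborn and 0.79 in the fetus, the Wnt receptor FZD5 2.79 and 1.21, and PRDM1, a repressor of lymphoid and myeloid differentiation, 3.11 and 1.6. FZD5 and PRDM1 each had 1 of 4 untreated newborn arrays above background. MARCKSL1 lay at -3.00 to -2.64 in untreated newborn and at 0.65 to 1.19 in untreated premature vessel, so that its PHE arrays remained below those of the fetus. EIF4G1 had -0.88 and -1.79. The chromatin remodeller CHD2 had -2.58 in the fetus, with 0 of 4 PHE arrays above background, and was not tested in the newborn, where 1 of 4 untreated and 1 of 4 PHE arrays were above background. Under the fit to all 32 arrays none of these 5 differences passed (adjusted p = 1.0 for each), and with the normexp correction none passed (adjusted p from 0.264 to 0.567).

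**Figure D4:**
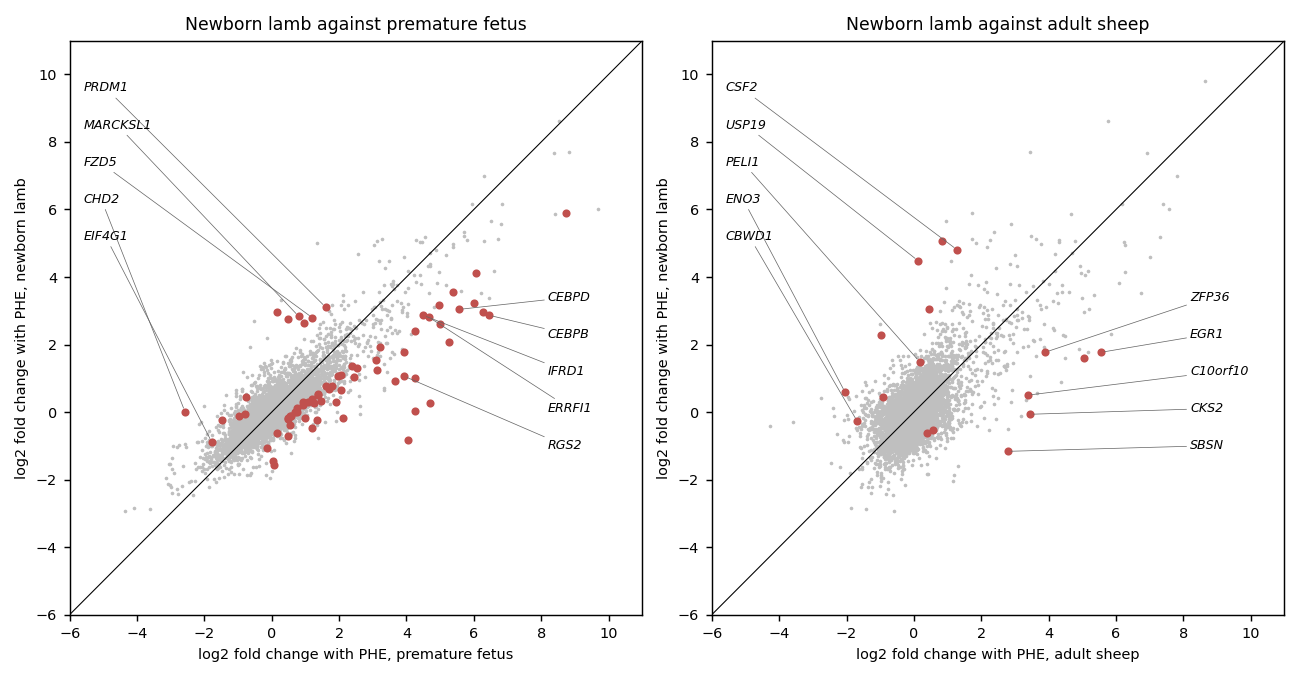
Log2 fold change with PHE in the newborn MCA (vertical axis) against that in the premature fetus (left) and the adult sheep (right) for every gene and probe tested; red points differ between the ages, the line marks equal values, and the 5 genes with the smallest adjusted p in each direction are named. Most red points on the left lie below the line, such as CEBPB at 2.87 in the newborn and 6.45 in the fetus.

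Against the adult sheep 17 of 10025 genes and probes differed (0.17%), with 9 above the adult value (0.0898%) and 8 below (0.0798%). This count rests on single arrays. It was 0 without newborn untreated replicate 3, newborn PHE replicate 1, 3 or 4, or adult untreated replicate 4, and 1 without adult PHE replicate 2 or 3. It was 5 without newborn untreated replicate 1, 8 without adult untreated replicate 1, 10 without newborn untreated replicate 4, 30 without adult PHE replicate 1 and 46 without adult PHE replicate 4. All adult PHE arrays shared a slide with 2 of the 4 untreated adult arrays. In a pair of alternatives chosen after seeing the data, 13 genes differed with the slide as a block and 31 with the adult arrays of that slide alone.

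Below the adult value lay EGR1, with 1.77 in the newborn and 5.55 in the adult, a difference of -3.78 ± 0.58 (adjusted p = 0.0238, and 0.0548 with the slide as a block). EGR1 lay at -0.57, -0.24, 0.33 and 0.03 after PHE in the newborn and at 3.57, 3.71, 3.54 and 2.01 in the adult. ZFP36 had 1.77 and 3.90, a difference that did not pass with the slide as a block (adjusted p = 0.0745) or with adult arrays of 1 slide (0.0666). With the slide as a block C10orf10 and USP19 did not pass either (adjusted p = 0.0563 for each). C10orf10 had 0.50 and 3.38, CKS2, a cyclin-dependent kinase subunit, -0.07 and 3.44, and SBSN -1.16 and 2.78. SBSN did not pass in the newborn by itself (adjusted p = 0.129) and passed with same-numbered arrays as pairs (adjusted p = 0.0428). Above the adult value lay CSF2, the granulocyte and macrophage growth factor, which measured -1.94, -2.0, -1.66 and -2.78 after PHE in the newborn and was well above background on 0 of 8 adult arrays. In the newborn alone CSF2 rose at least 6.50-fold. The deubiquitinase USP19 rose at least 16.1-fold in the newborn, with 1 of 4 arrays above background in each adult group. PELI1, a ubiquitin ligase of Toll-like receptor signalling, had 1.49 and 0.16. CBWD1 had -0.27 and -1.69. ENO3 was well above background on 0 of 4 untreated and 2 of 4 PHE arrays in the newborn and on 4 of 4 and 0 of 4 in the adult. The differences of CSF2, USP19 and ENO3 therefore rest on signals near background and their size is uncertain. In the fit to all 32 arrays the differences of ENO3 (adjusted p = 0.101), CBWD1 (0.886), CSF2 (0.272) and SBSN (0.153) did not pass. With the normexp correction ENO3 dropped to 0.65 (adjusted p = 0.865) and CBWD1 to 0.90 (0.181), and USP19 (0.0538), PELI1 (0.0602) and SBSN (0.0924) did not pass either. With same-numbered arrays as pairs, a pairing that the adult arrays do not bear out, 6 of these 10 differences no longer passed (adjusted p from 0.0605 to 0.121), while EGR1, CKS2, C10orf10 and USP19 passed at an adjusted p that rounds to 0.05.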

How the data were processed

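RNA of MCA segments was hybridised to 1-colour Agilent sheep arrays (1 array per sample) and scanned, and the authors extracted spots with Agilent Feature Extraction 9.5.3.1. The deposited values are intensity signals on a linear scale, background-subtracted and spatially detrended within each array per the file headers, with no normalization between arrays. A genome build is not given in the sources used here. Of 15744 spots on each array 536 were controls and were left out, as were outlier spots (2 to 17 on the newborn arrays). The 75th percentile of intensity was 656 to 878 on untreated and 693 to 839 on PHE arrays. Their number, 4 against 4, limits the precision.

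Each deposited intensity was divided by its array's 75th percentile and taken to log2. Probes whose spots stood well above background throughout at least 1 group of 4 arrays were tested with limma 3.58.1 in R 4.3.3 (lmFit and eBayes, two-sided, Benjamini-Hochberg adjustment, adjusted p under 0.05 and at least 1.5-fold). The methods' own test, a Welch t-test at an unadjusted p under 0.05 and 1.5-fold, was run as an alternative, also after Benjamini-Hochberg adjustment. Unadjusted it called 1801 genes, 910 higher and 891 lower, and 1773 of these calls were shared with limma. Changes across ages were tested as interactions in limma in the same way. A gene was represented by its brightest tested probe. Where a group had no array above background, the bound compares the bright group's mean with the mean of, per array, the higher of the lowest signal well above background and the dim probe's own. The tests were tried on simulated data first.

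Of 15008 probes 520 were named through reference accessions (assembly ARS-UI_Ramb_v3.0, used for names only) and 759 by names in the files. Another 1736 were named by matching group means to a table of the study, and 11993 had no name. Means had to match within 0.05%, but for the premature fetus a wider, absolute tolerance was used along with the fold change. There 166 of 1269 listed genes matched several probes and gave no name. With the treated means shifted by 1 gene and the fold change not checked, 91 premature genes still matched 1 probe. At the near-term, newborn and adult ages it was 1, 3 and 1. Of genes named in 2 ways, 61 of 64 reference names and 95 of 98 file names were the same as the table's. The match used only group means and that fold change to identify probes, and no value of that table is given here.

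Members and gene lists were chosen with earlier results of these data known. The genes named are the 10 largest rises and 10 largest falls above background on all arrays and in all pairs, the 5 largest bounds, up to 4 changed and 2 unchanged members of each list, the 5 smallest adjusted p in each direction of each age comparison, and adrenergic receptors. Some items that the rule names are not reported here. Others were chosen after their values were seen, or complete a count.

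Same-numbered untreated and PHE arrays deviated together in the newborn (r = 0.48 to 0.56 over 9789 probes) and in the premature fetus (0.40 to 0.51), so that the numbers may pair the samples there. In the adult r was -0.11 to 0.03. The main tests took the arrays as unpaired, and same-numbered arrays were fitted as pairs as an alternative. Alternatives covered the background correction, scaling, dim-probe filter, probes per gene, names, value table, arrays in the fit and leaving out each array.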

Additional observations from a re-analysis of the deposited data

Results flagged for a closer look

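In 25 of 369 groups of 4 newborn arrays examined, 1 array stood apart from the others of its group by Dixon's criterion, which chance meets in about 1 group in 20. After PHE the array that stood apart was the highest for BAG3 (3.56), BHLHE40 (4.66), CDKN1A (4.93), DUSP5 (3.31), FABP4 (-0.08), ICAM1 (2.79) and MYC (4.35). It was the lowest for CBWD1 (-1.79), CTH (1.66), IL6 (3.38), IRF1 (0.45), MRPL44 (-4.56) and ZSCAN29 (-1.29). In untreated vessel it was the highest for CREM (-1.55), GUCY1B3 (-0.02), LIG1 (-2.65), PDK4 (0.81) and TNRC6A (2.69). It was the lowest for C9H6ORF203 (-0.57), GJA1 (1.35), GJA4 (-2.27), HMOX2 (-2.66), PFKFB3 (-4.53), SNAI1 (-2.29) and ZBED5 (0.43). All values are log2 signals relative to the array's 75th percentile.

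For 29 comparisons of named genes the PHE effect differed between ages by an interaction test in limma. Newborn minus premature, the difference of log2 fold changes was -3.58 for CEBPB, -2.86 for RGS2, -2.84 for IL1A, -2.79 for CHAC1, -2.52 for CEBPD, -2.28 for DUSP1 and -2.16 for EGR1. It was -1.94 for IRF1, -1.85 for ERRFI1, -1.84 for NFKBIA, -1.81 for NFKBIZ, -1.62 for IFRD1, -1.13 for CYP51A1 and -0.99 for TOB1. It was 2.59 for CHD2, 2.05 for MARCKSL1, 1.59 for FZD5, 1.51 for PRDM1 and 0.91 for EIF4G1. Newborn minus adult, it was -3.94 for SBSN, -3.78 for EGR1, -3.51 for CKS2, -2.88 for C10orf10 and -2.13 for ZFP36, and 4.37 for USP19, 3.53 for CSF2, 2.63 for ENO3, 1.42 for CBWD1 and 1.33 for PELI1. The values of IL1A, CHD2, USP19, CSF2 and ENO3 are fitted differences in which at least 1 group had 0 of 4 arrays well above background, so that they are not measured sizes. Age and slide cannot be told apart in these comparisons, since no slide held arrays of the newborn and of either other age.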

How the results depend on the processing

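The 1789 newborn calls became 1065 (534 higher, 531 lower) in 1 fit to all 32 arrays, 1149 with the methods' t-test after Benjamini-Hochberg (516 lower) and 1122 with the normexp correction (384 lower), and without a fold threshold 1480 were lower. Leaving out 1 array gave 1531 to 1968 calls, 802 to 972 higher and 729 to 996 lower. Of the 1789 genes 622 (34.8%) were called in every setting that tested them. With same-numbered arrays paired as a replicate block 2084 were called, 1781 of them shared, and beyond the 5 named genes that then passed no call of a named gene changed. Of 129 changed named genes the fit to all arrays lost 13, the methods' t-test after Benjamini-Hochberg 12, normexp 10 and leaving out 1 array 0 to 4. With unadjusted p, as the methods give it, that t-test lost 0 of the 129. The calls lost in the fit to all arrays were CD46, GJA4, GUCY1B3, HSPA4, HSPH1, HTR2A, PDK4, POMC, PTGS1, RGS2, RPS4X, SENP8 and ZNF281. Those lost with the methods' t-test after Benjamini-Hochberg were CHAC1, EGR1, EGR3, GJA4, HSPA4, MRPL44, MT1A, PDK4, POMC, RGS2, SDPR and TERT. The fit to all arrays also lowered list counts, leaving 4 higher among heat shock genes, 4 in clotting, 7 in adhesion, 7 in glycolysis, 7 among angiogenic factors, 6 in TGF-beta, 5 in sterols, 2 in PPAR and 1 in contraction, and 7 lower among mitochondrial genes. With normexp 0 members were lower in the interferon, TGF-beta and contraction lists and 3 in mRNA decay.

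Against the premature fetus the replicate block gave 338 (109 above, 229 below), the fit to all arrays 2 (0 and 2), normexp 7 (1 and 6), median scaling 42 (26 below), no filter 40 (30 below) and quantile normalization 22 above. Leaving out 1 array gave 38 to 72, 8 to 17 above and 30 to 55 below. Against the adult the block gave 8 (3 and 5), quantile normalization 63 (41 and 22), no filter 8 (4 and 4), probes above background on all 16 arrays 9 (2 above), the fit to all arrays 3 above, the slide block 4 above and adult arrays of 1 slide 31 (24 below). Leaving out 1 array gave 0 to 46, 0 to 29 above and 0 to 17 below. The cause of these shifts was not tested.

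Small log2 fold changes changed sign. With normexp these were ALDOA (-0.03), ALOX5AP (0.14), FTH1 (-0.01), INHBA (-0.06), LIG1 (0.18), PRKACA (0.04), RPS20 (-0.10) and XPC (0.02), and with median scaling RPS20 (-0.01). With the mean of probes it was IFNAR1 (0.02). The called fall of EIF4G1 (-0.88) turned to 0.44 with names independent of the study's list. Its call was also lost with the mean of probes (-0.22, adjusted p = 0.296) and with normexp (-0.51, below 1.5-fold). Leaving out 1 array, the ranges crossing 0 were ALDOA -0.01 to 0.09, ALOX5AP -0.47 to 0.13, CKS2 -0.16 to 0.11, DUSP1 -0.50 to 0.02, FKBP5 -0.01 to 0.23, IFNAR1 -0.08 to 0.04, INHBA -0.14 to 0.14, JAK1 -0.13 to 0.02, NARS -0.22 to 0.01, PTGDS -0.24 to 0.03, RPS20 -0.06 to 0.05 and XPC -0.17 to 0.04. The slide as a block could not be fitted for the newborn arrays, which share 1 slide. Signals near background limit the values of dim genes.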

Other observations

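Further genes whose log2 fold change was lower in the newborn than in the premature MCA were chosen after their values were seen. SAA1, an acute phase protein, had 0.26 in the newborn and 4.70 in the fetus, the chemokine CXCL10 -0.83 and 4.04, and PPP1R15A, which restores translation after stress, 0.99 and 4.25. ATF3 had 2.96 and 6.29, and RGS1, which switches off G proteins in leukocytes, 2.06 and 5.27. For PPP1R15A and RGS1 0 of 4 untreated premature arrays were well above background, so that their premature values rest on background. Their differences stand among the 58 below the premature value and share the limits given there.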
